A study of Mus musculus with 33 samples.

Results

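Hippocampi from 33 mice were each profiled on 1 MOE430 2.0 array, and the arrays differed widely in the signal of Ttr, which encodes transthyretin. The 33 arrays were ranked by the Ttr probe set of highest mean signal. The 11 arrays of highest Ttr were set against the 11 of lowest Ttr, so that 22 of the 33 arrays entered the comparison and the middle 11 stayed outside it. A difference is given as high minus low on the scale of log2(signal + 16), with the treatment group as a covariate. The arrays were selected on their Ttr signal, so its own values are a description. The p-values of the other genes measure their association with Ttr across animals and not the effect of a condition.

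Transthyretin carries thyroid hormone and, with its partner Rbp4, retinol. In the brain it is made mainly by the epithelium of the choroid plexus, the folded tissue in the ventricles that secretes cerebrospinal fluid. That epithelium is held together by tight junctions, carries ion and water channels, transporters for folate, glucose and metals, and secretes growth factors and binding proteins into the fluid. It lies against the hippocampus in the lateral ventricle, beside ciliated ependymal cells, and its core holds vessels and fibroblasts.

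The animals were 20 weeks old and on a SJL × C57BL/6J background. One group was wild-type littermates given vehicle. Another was heterozygous male Tg2576 mice given vehicle, and the last was heterozygous male Tg2576 mice given TO901317, an agonist of the liver X receptors, at 50 mg/kg per day, with 11 arrays in each group. Tg2576 mice carry a human APP transgene (hAPP) with the Swedish familial Alzheimer mutation, driven by the prion promoter. The labels give the dosing as 7 days in 1 place and as 5 days in another. Each brain was perfused with saline 1 hour after the last dose and the right hippocampus was taken. All groups share the strain background, age and dosing by gavage.

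Ttr signals ran from 4260.1 to 6988 on the 11 high arrays, from 921.5 to 4053.9 on the middle 11 and from 60.2 to 800.4 on the 11 low arrays. The array just inside the high class had 4260.1 and the array just outside it 4053.9. At the low boundary the corresponding signals were 800.4 inside and 921.5 outside. The Ttr probe set of second highest mean placed every array in the same class, at 4242.3 to 6527.2 on the high, 574.9 to 2755.8 on the middle and 26.6 to 531.4 on the low arrays. Its high and middle arrays were thus separated by a gap that the brighter probe set did not show. On the high arrays Ttr was among the brightest probe sets, at ranks 1 to 7 of the array, and the highest signal of any probe set in the series was 8325.4. Whether the Ttr signal was limited by saturation was not tested.

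The high class held 3 wild-type arrays, 3 vehicle Tg2576 arrays and 5 treated arrays, and the low class 5, 5 and 1. The difference in these counts between the groups did not pass Fisher's exact test over the 22 arrays (two-sided p = 0.216). The classes were uneven over the replicate numbers of the labels, whose meaning the labels do not state. Of the 21 arrays numbered 1 to 7, 3 were high, 8 middle and 10 low. Of the 12 numbered 8 to 11, 8 were high, 3 middle and 1 low. Of the scaling and RNA measures tested, none differed between the classes past the threshold. The array median signal was 23.4 ± 2.4 (SD, n = 11) on the high arrays and 22.4 ± 2.0 (SD, n = 11) on the low arrays (permutation test, p = 0.263, adjusted over 3 measures 0.43). RNA degradation raises the signal of a gene's 3′ probe set over that of its 5′ probe set, and the log2 of that ratio differed by -0.05 for Gapdh (permutation p = 0.287, adjusted 0.43) and by -0.0045 for Actb (permutation p = 0.945, adjusted 0.945). Vehicle Tg2576 replicates 3 and 4, both low arrays, stood apart with Gapdh values of 0.110 and 0.079, while all others were below 0. Without them the high and low classes differed in 66 genes in place of 90, of which 32 were choroid plexus genes.

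**Figure D1:**
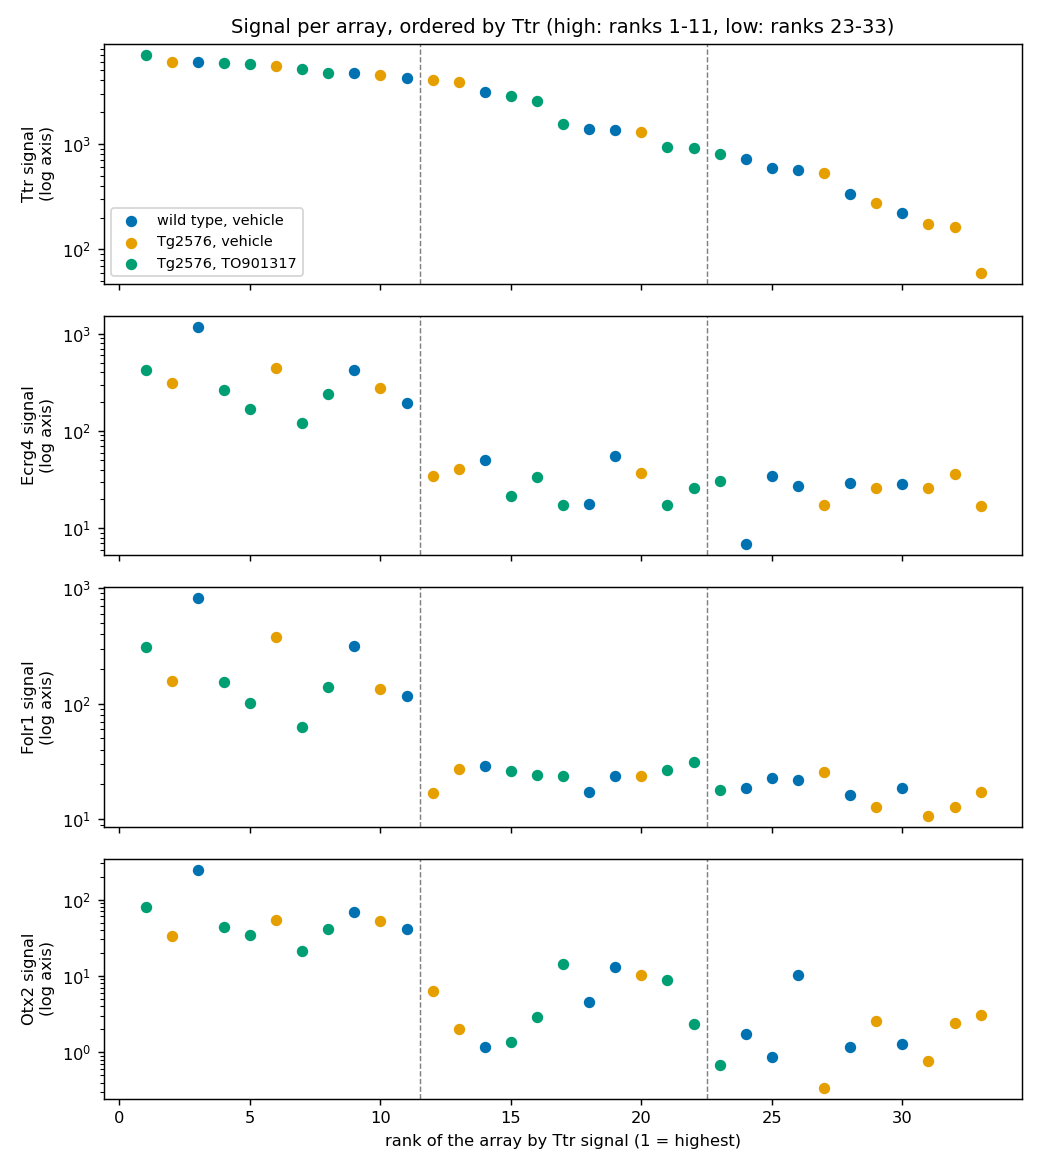
Signal of Ttr, Ecrg4, Folr1 and Otx2 on each of the 33 arrays (log axes), ordered by the Ttr rank of the array and coloured by treatment group, with dashed lines between the classes. The Ttr probe set plotted, which ranked the arrays, runs from 6988 to 60.2 with no gap at rank 12, where a second Ttr probe set drops from 4441.5 to 2755.8. Ecrg4, Folr1 and Otx2 are lower on every array from rank 12 on than on every array up to rank 11.

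Choroid plexus genes were higher on the high arrays. The choroid plexus lists hold 70 genes besides Ttr, of which 65 have a probe set of their own on the array and 56 passed the filter on low signals. Of these 56, 35 were higher on the high arrays, 0 were lower and 21 did not pass the threshold (limma, Benjamini-Hochberg adjusted p under 0.05 over 12759 genes). Over all genes tested, 89 were higher, which is 0.698%, and 1 was lower, which is 0.00784%. The median difference was 0.98 over the 56 choroid plexus genes and -0.0024 over all genes. The sign was positive for 55 of the 56. Every high array exceeded every low array for 26 genes, or 0.204% of those tested, and 21 of the 26 were choroid plexus genes. No gene had every high array below every low array. The filter used the mean log2 value over all 33 arrays, so a gene could pass it through its high arrays alone. Aqp1, Cldn2, Kcne2 and Otx2 had every low signal under the filter limit and entered the 56 through other arrays. Among the 35, Abca4, Col8a1, Col8a2, F5, Krt18, Prr32, Steap1 and Wfdc2 also had a median low signal under that limit. The counts of 35 and 21 include such genes. With no filter 65 choroid plexus genes were tested, 35 were called and 64 had a positive sign. The members that fell below the filter included the bicarbonate transporter Slc4a5, with mean signals of 48.0 on the high and 3.5 on the low arrays, and the monocarboxylate transporter Slc16a8, with 35.4 and 4.3. Enpp2, Prlr, Mfrp and 2900040C04Rik had no probe set of their own. In bulk tissue, fewer cells of a type and less RNA per cell cannot be told apart.

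**Figure D2:**
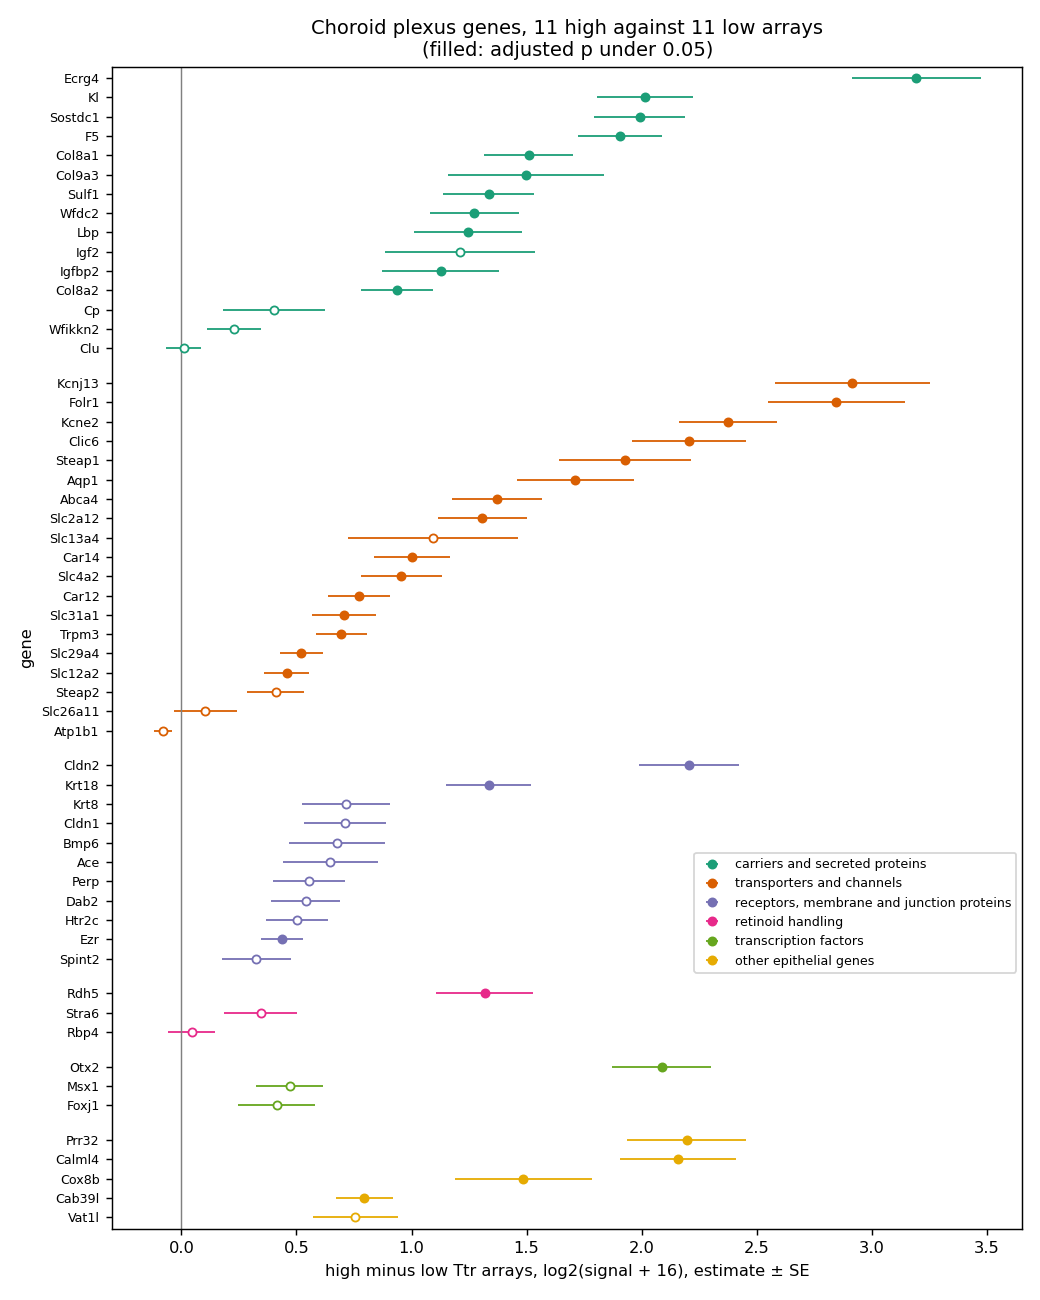
Difference between the 11 high and the 11 low arrays, log2(signal + 16), with its standard error, for the 56 choroid plexus genes tested, coloured by role. Filled points passed adjusted p under 0.05 and open points did not. The estimates run from -0.08 for Atp1b1 to 3.19 for Ecrg4.

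Among the secreted proteins and carriers, 11 of 15 genes were higher. With the probe set that represents each gene here, the largest difference belonged to Ecrg4, which encodes a secreted peptide precursor known as augurin. Its signal was 122.0, 279.3 and 1185.4 (lowest, median and highest) on the high arrays, 17.2, 33.2 and 55.03 on the middle arrays and 6.8, 26.9 and 35.7 on the low arrays. Every high array therefore lay above all 22 others. The difference was 3.19 ± 0.28 (SE, n = 11 and 11; limma adjusted p = 1.87e-06). A further Ecrg4 probe set gave 3.50 and a dim one, of mean signal 27.8, gave 0.67. Kl, encoding klotho, a membrane protein that is also shed into the fluid, had 138.2, 200.2 and 734.4 on the high arrays against 43.9, 56.8 and 70.2 on the low arrays. It rose by 2.01 ± 0.21 (SE; limma adjusted p = 7.46e-06), with no overlap between the classes.

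Sostdc1, a secreted antagonist of BMP and Wnt signalling, rose by 1.99, and the coagulation factor F5 by 1.91, both without overlap between the classes. Wfdc2, a protease-inhibitor-like secreted protein, rose by 1.27, also without overlap. The matrix genes Col8a1, Col8a2 and Col9a3 rose by 1.51, 0.94 and 1.50, the heparan sulfatase Sulf1 by 1.34 and the lipopolysaccharide-binding protein Lbp by 1.25. Igfbp2, which binds insulin-like growth factors, rose by 1.13 (limma adjusted p = 0.041). The Igfbp2 call was lost in 17 of 22 fits that each left out 1 array, and that of Col9a3 in 15.

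Igf2, the growth factor that the plexus secretes into the fluid, did not pass. Its signal was 334.9, 531.2 and 1321.2 on the high arrays and 121.1, 186.1 and 795.6 on the low arrays, so the classes overlapped. The difference was 1.21 ± 0.33 (SE; limma adjusted p = 0.132). The highest low array was wild-type replicate 2, whose Ttr signal was 222.9. On that array the fibroblast gene Col1a2 stood at 159.8 and the GABA transporter Slc6a13, which meningeal fibroblasts express, at 162.2. Col1a1, of the same fibroblast list, was 13.6 there, Ecrg4 28.4 and Otx2 1.3. The high array vehicle Tg2576 replicate 11 had Col1a2 at 162.95 and Slc6a13 at 112.0. Whether fibroblasts account for the Igf2 signal of wild-type replicate 2 was not tested. Without wild-type replicate 2 the Igf2 difference was 1.37 and passed (limma adjusted p = 0.014). That was the only 1 of the 22 fits without 1 array in which Igf2 passed, and it left out the highest low signal. With the mean of the fibroblast list as a further covariate, the Igf2 difference was 1.09 and passed (limma adjusted p = 0.0203). The sulfate transporter Slc13a4 changed its call with that covariate too, from 1.09 (adjusted p = 0.30) to 0.94 (adjusted p = 0.0211). Both genes also passed in comparisons without that covariate. High against middle arrays, both differed by 1.47 (limma adjusted p = 0.000309 for Igf2 and 0.00056 for Slc13a4). High against the other 22, the differences were 1.39 and 1.34 (limma adjusted p = 0.000238 and 0.00183). Of 27 alternatives besides leaving out 1 array, Igf2 passed in 5 and did not pass in 22. Clu, which astrocytes also express, differed by 0.01 ± 0.07 (SE; limma adjusted p = 0.983), with signals of 3139.0 to 4624.5 on the high and 3083.7 to 4096.6 on the low arrays.

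Among the transporters and channels, 15 of 19 genes were higher. Kcnj13, the inwardly rectifying potassium channel of the epithelium's apical face, had signals of 158.2, 242.6 and 1358.4 on the high arrays, 16.1, 30.1 and 80.7 on the middle and 13.8, 33.8 and 67.9 on the low arrays. The difference was 2.91 ± 0.34 (SE; limma adjusted p = 5.68e-05), and all 11 high arrays lay above the other 22. Folr1, the folate receptor that carries folate into the fluid, had 62.8, 154.3 and 815.8 on the high arrays against 10.6, 18.02 and 25.5 on the low arrays. It rose by 2.85 ± 0.30 (SE; limma adjusted p = 1.07e-05) without overlap. Kcne2, a potassium channel subunit, had 28.1, 63.9 and 257.6 against 0.32, 2.85 and 8.42, a difference of 2.37 ± 0.21 (SE; limma adjusted p = 1.2e-06). All of its low signals lay under the signal of 13.3 that marks the filter, so the size of the difference is set partly by the offset of 16. The same holds for Aqp1, Cldn2 and Otx2. The offset bears likewise on genes whose median low signal lay under that limit, such as Prr32 and Steap1.

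Clic6, an intracellular chloride channel family member, rose by 2.20 ± 0.25 (SE; limma adjusted p = 2.25e-05), and its other probe set, of higher mean signal but lower mean log2 value, gave 3.62, above either bright Ecrg4 probe set. The metalloreductase Steap1 rose by 1.93 and the water channel Aqp1 by 1.71, each without overlap. Abca4, a lipid transporter of the ABC family, rose by 1.37, and the glucose transporter Slc2a12 by 1.31. The carbonic anhydrases Car14 and Car12, which supply bicarbonate for fluid secretion, rose by 1.00 and 0.77, and the anion exchanger Slc4a2 by 0.96. Smaller rises were those of the copper transporter Slc31a1 at 0.71, the cation channel Trpm3 at 0.70, the monoamine transporter Slc29a4 at 0.52 and the sodium-potassium-chloride cotransporter Slc12a2 at 0.46. The Slc12a2 call was lost in 4 of 22 fits, those without wild-type replicate 10, vehicle Tg2576 replicate 5, vehicle Tg2576 replicate 11 or treated Tg2576 replicate 8. Atp1b1, a sodium pump subunit that neurons also express strongly, differed by -0.08 ± 0.04 (SE; limma adjusted p = 0.561) at signals of 3695.9 to 4372.1 and 3843.3 to 4519.8.

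Of the receptors, membrane and junction proteins, 3 of 11 passed and all 11 had a positive sign. Cldn2, the claudin that makes a leaky, cation-selective tight junction, had signals of 34.1, 65.9 and 285.7 on the high arrays, 4.0, 12.8 and 22.1 on the middle and 1.2, 7.9 and 12.1 on the low arrays. It rose by 2.21 ± 0.22 (SE; limma adjusted p = 2.26e-06) without overlap. The epithelial keratin Krt18 rose by 1.34 and Ezr, encoding the membrane-cytoskeleton linker ezrin, by 0.44. A further Ezr probe set, of mean signal 118.5, gave 0.18. The Ezr call was lost with the mean of probe sets and against the middle arrays. Krt8, the keratin partner of Krt18, differed by 0.72 (limma adjusted p = 0.0944) and Cldn1 by 0.71 (adjusted p = 0.0649). The serotonin receptor Htr2c, which hippocampal neurons also express, had 287.8, 346.5 and 593.6 on the high arrays and 167.4, 237.1 and 357.8 on the low arrays. The Htr2c difference was 0.50 ± 0.14 (SE; limma adjusted p = 0.108).

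Of the genes that handle retinoids, 1 of 3 passed. This was Rdh5, a retinol dehydrogenase, which rose by 1.32 without overlap, at 51.4 to 297.4 against 22.48 to 37.1. Of the transcription factors, 1 of 3 passed. Otx2, a homeobox factor that the epithelium needs for its development, had 21.51, 44.2 and 242.6 on the high arrays, 1.19, 4.54 and 14.3 on the middle and 0.34, 1.30 and 10.3 on the low arrays. It rose by 2.09 ± 0.22 (SE; limma adjusted p = 2.41e-06) without overlap. Msx1 and Foxj1, the latter the master factor of motile cilia, differed by 0.47 (limma adjusted p = 0.21) and 0.41 (adjusted p = 0.429). Among the other epithelial genes 4 of 5 passed. Prr32 and Calml4, a calmodulin-like protein of brush borders, rose by 2.20 and 2.16, Cox8b, a respiratory chain subunit, by 1.49 and Cab39l, a partner of the kinase LKB1, by 0.80, all without overlap. The Cox8b call was lost with an offset of 64, without vehicle Tg2576 replicates 3 and 4 and with arrays ranked within treatment groups. Vat1l differed by 0.76 (limma adjusted p = 0.0635).

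The promoters of the genes with the largest rises that could be matched to RefSeq's table are shown because these genes moved together across arrays. Each runs from 250 bases before to 50 bases after the start in RefSeq (GRCm38.p6), 5′ to 3′ on the gene's strand, with capitals marking a motif on either strand. The motifs searched were TAATCC, the core site of Otx2, then TGTTTA, the core site of forkhead factors, and GTTGCC, a part of the X-box that RFX factors bind. The Ecrg4 window is at chr1:43730352-43730651 on the + strand, that of Kcnj13 at chr1:87394680-87394979 on the − strand and that of Kcne2 at chr16:92292139-92292438 on the + strand, where 2 starts are listed.
Ecrg4: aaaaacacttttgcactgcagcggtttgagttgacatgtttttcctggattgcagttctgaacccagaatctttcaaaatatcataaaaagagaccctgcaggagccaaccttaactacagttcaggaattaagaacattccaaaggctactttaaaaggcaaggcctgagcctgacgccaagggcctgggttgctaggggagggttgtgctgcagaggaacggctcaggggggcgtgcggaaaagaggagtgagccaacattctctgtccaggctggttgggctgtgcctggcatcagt
Kcnj13: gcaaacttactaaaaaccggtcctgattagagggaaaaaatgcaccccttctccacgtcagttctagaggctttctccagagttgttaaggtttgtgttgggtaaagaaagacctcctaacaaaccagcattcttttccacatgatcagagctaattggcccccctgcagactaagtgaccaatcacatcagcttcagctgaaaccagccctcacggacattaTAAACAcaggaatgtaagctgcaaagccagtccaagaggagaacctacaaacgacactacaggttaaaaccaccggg
Kcne2: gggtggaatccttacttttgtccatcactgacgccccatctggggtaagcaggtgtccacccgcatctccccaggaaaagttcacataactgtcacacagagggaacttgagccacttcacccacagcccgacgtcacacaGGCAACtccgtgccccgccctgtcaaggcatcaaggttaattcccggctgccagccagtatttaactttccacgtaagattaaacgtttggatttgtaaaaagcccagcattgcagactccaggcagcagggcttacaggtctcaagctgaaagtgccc
The Ecrg4 window held none of the motifs. The Kcnj13 window held 1 match to the forkhead letters and that of Kcne2 held 1 match to the X-box letters, both on the opposite strand. Of the 35 choroid plexus genes that rose, 28 matched the RefSeq table with 37 windows. Of these windows 8.11% held the Otx2 core, 10.8% the forkhead core and 24.3% the X-box letters, against 7.06%, 13.4% and 12.5% of all 32851 promoters. The matches are a description of letters in these windows.

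The choroid plexus genes did not follow Ttr in steps of equal size. High against middle arrays, 104 genes were higher, which is 0.815% of those tested, and 40 of the 56 choroid plexus genes were among them. In the same comparison 11 of 12759 genes were lower. Middle against low arrays, limma called 0 of 12759 genes, 688 had an unadjusted p under 0.05 and the smallest adjusted p was 0.49. For the 35 choroid plexus genes that rose in high minus low, the median difference was 1.37 for high minus low, 1.33 for high minus middle and 0.12 for middle minus low. These comparisons share arrays. For the 54 other genes that rose, the median was 0.56 for high minus low and 0.04 for middle minus low. The largest middle minus low difference of a choroid plexus gene that rose was 0.40, for Prr32. The median over the middle arrays lay between those of the high and low arrays for 23 of the 35, or 65.7%. The same held for 38 of the 55 genes called outside the choroid plexus lists, or 69.1%, and for 35.3% of all genes. Called genes were selected for a gap between high and low arrays, and a gap favours a median between them. These shares are therefore a description.

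**Figure D3:**
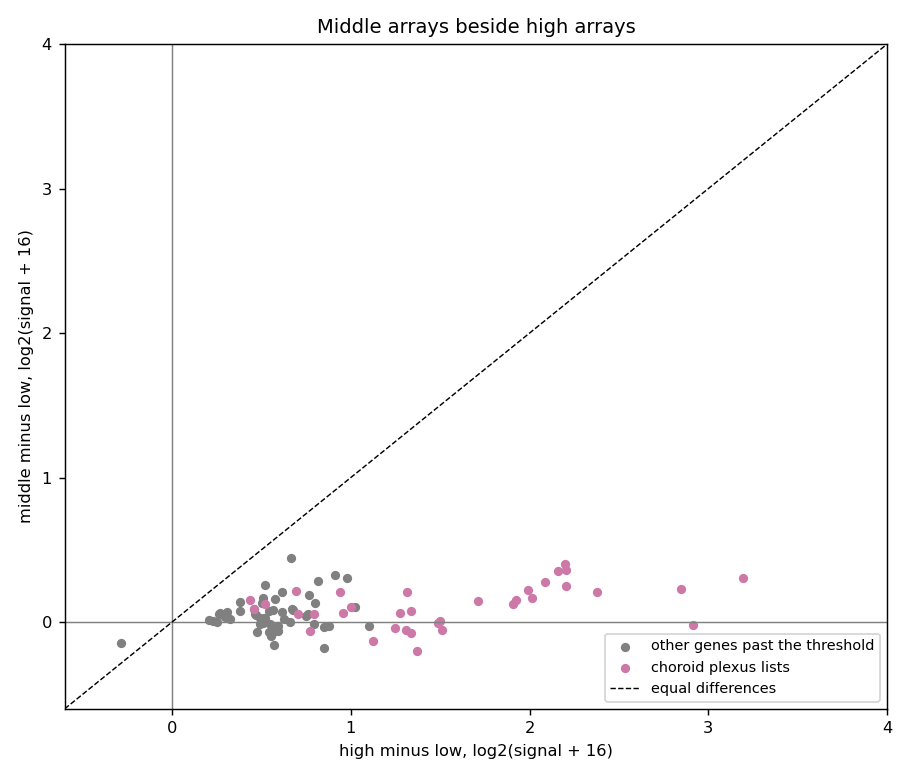
Difference of the middle 11 from the low 11 arrays (vertical) beside the difference of the high 11 from the same low arrays (horizontal), log2(signal + 16), for the 90 genes past the threshold in high minus low. Both axes share the low arrays. The choroid plexus genes reach 3.19 on the horizontal axis and at most 0.40 on the vertical axis, far under the dashed line of equal differences.

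Many of the choroid plexus genes dropped at the boundary between ranks 11 and 12. From rank 11, wild-type replicate 11, to rank 12, vehicle Tg2576 replicate 10, the Ttr signal changed from 4260.1 to 4053.9, a ratio of 1.05, and that of the second Ttr probe set from 4441.5 to 2755.8, a ratio of 1.61. Across the same pair the ratios of the 35 choroid plexus genes that rose had a median of 2.04 and ran from 0.88 to 6.94. The ratio was over 2 for 19 of the 35, at or under that of the second Ttr probe set for 12 and under 1 for 2 of these. The highest ratio was that of Folr1, which changed from 116.2 to 16.8, and Ecrg4 changed from 194.2 to 34.1, a ratio of 5.69. Otx2 changed from 41.1 to 6.3, a signal too low for a ratio to be read. Col8a1, at 20.1 and 19.8, and Sulf1, at 51.4 and 48.9, had ratios of 1.01 and 1.05. Car12 was 208.2 at rank 11 and 220.4 at rank 12, and Slc31a1 51.5 and 58.4. Of the 35 choroid plexus genes that rose, 18 were higher on every high array than on all 22 other arrays, against 2 of the 54 other genes that rose. Over all 12759 genes tested the count was 20. The genes that rose had already been selected for their difference from the low arrays. Set against all 22 others, the high arrays had 181 genes higher, or 1.42%, of which 45 were choroid plexus genes, and 15 of 12759 lower. The boundary was seen in these data first, so these counts are a description of where the genes changed.

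**Figure D4:**
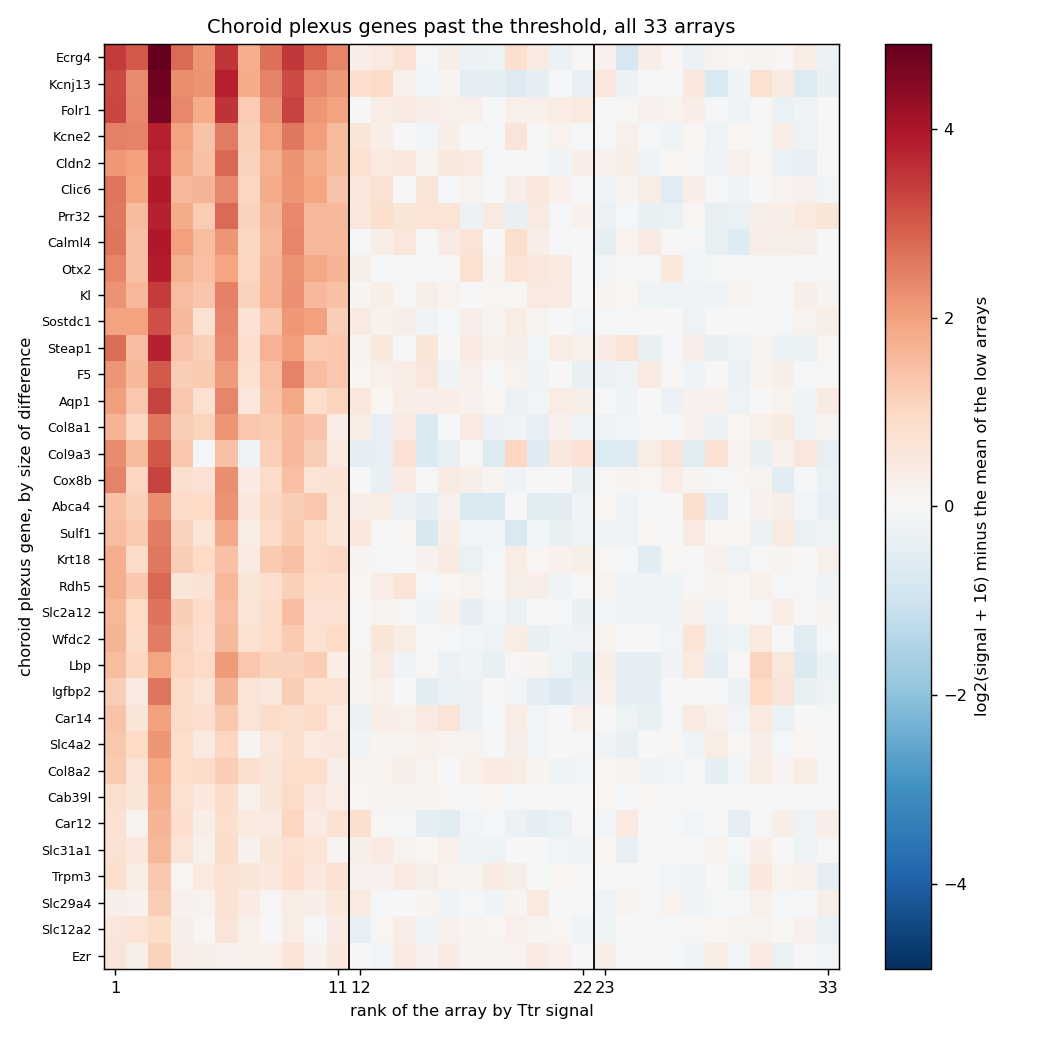
The 35 choroid plexus genes that rose (rows, by size of difference) on all 33 arrays (columns, by Ttr rank), as log2(signal + 16) minus the mean of the 11 low arrays. The columns to the left of the first line are the high arrays. Rank 3, wild-type replicate 10, is the darkest column, and the middle columns resemble the low ones.

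Within the high class the order of the choroid plexus genes differed from that of the ranking Ttr probe set. Wild-type replicate 10, of Ttr rank 3, had the highest signal of the class for 34 of the 35 genes. Treated Tg2576 replicate 11, of rank 7, had the lowest for 24 of the 35. The second Ttr probe set was at 6006.0 and 4242.3 on these arrays, the latter its lowest in the class. Wild-type replicate 10 and treated Tg2576 replicate 4 were close in Ttr, at 5967.5 and 5821.6, or 6006.0 and 5106.0 by the second probe set. On these arrays Ecrg4 was 1185.4 and 260.9, Folr1 815.8 and 154.3, Kcnj13 1358.4 and 229.2 and Otx2 242.6 and 44.2. Without wild-type replicate 10, 58 genes were called in high minus low in place of 90, of which 32 were choroid plexus genes. Leaving out each of the 22 arrays in turn gave 58 to 104 genes and 32 to 38 choroid plexus genes. Of the 35 choroid plexus genes, 32 were called in all 22 of these fits.

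Because the high arrays lay mostly among replicate numbers 8 to 11, the comparison was repeated within number ranges, with all other arrays of the range in place of the low class. Among arrays numbered 1 to 7, the 3 high arrays against 18 others gave 38 genes, all higher, of which 30 were choroid plexus genes. Among arrays numbered 8 to 11, the 8 high arrays against 4 others gave 0 genes by limma, with 1029 at an unadjusted p under 0.05 and a smallest adjusted p of 0.263. The Ecrg4 difference was 3.10 among numbers 1 to 7 and 2.58 among numbers 8 to 11 (limma adjusted p = 4.93e-09 and 0.263). The Folr1 differences were 2.45 and 2.46 (adjusted p = 2.55e-10 and 0.325). Among numbers 8 to 11 the 4 other arrays had Ecrg4 signals of 34.1, 40.6, 49.9 and 30.4, all below the lowest high array at 122.0. With replicate number as 11 fixed means, the high arrays against the other 22 gave 59 genes, 31 of them choroid plexus genes.

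Slopes on log2 Ttr over all 33 arrays were compared between the treatment groups. The slope was positive in wild-type, vehicle Tg2576 and treated Tg2576 arrays alike for 51 of the 56 choroid plexus genes tested and for 2086 of the 12759 genes. These arrays include those that formed the classes, so the counts are a description. Limma found 0 genes whose slope differed between the 3 groups, with 658 at an unadjusted p under 0.05 and a smallest adjusted p of 0.604. Without the treated arrays, which were 5 of the high and 1 of the low arrays, high minus low gave 60 genes, of which 31 were choroid plexus genes.

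Of the lists outside the choroid plexus, that of ependymal and motile cilium genes, which also holds Foxj1, had the largest median difference. Of 17 tested, 4 were higher, 0 lower and 13 did not pass, all 17 had a positive sign and the median was 0.42. At an unadjusted p under 0.05 there were 16 of the 17, and 1179 of all 12759 genes. Dynlrb2, a dynein light chain, had 44.9, 62.6 and 205.5 on the high arrays and 21.9, 32.4 and 55.1 on the low arrays and rose by 0.91 ± 0.18 (SE; limma adjusted p = 0.0116). Cfap126, Tmem212 and Ak7, an adenylate kinase of cilia, rose by 0.67, 0.66 and 0.52, with adjusted p of 0.041, 0.043 and 0.040. The signals of the 4 genes overlapped between the classes. The count of calls ranged from 1 to 6 when 1 array was left out and was 1 in 10 of these 22 fits, among them those without wild-type replicate 10 and vehicle Tg2576 replicate 11. It was 1 after quantile normalization and 0 when arrays were ranked within treatment groups, against the middle arrays or without the treated arrays. The summed signal of the list was 647.8 to 1532.5 on the high and 483.1 to 850.1 on the low arrays. The part of ependymal cells in these differences was not tested.

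Lists for the other cells of the dissection showed few calls. The endothelial list had 1 of 13 genes higher, Slco1c1, a thyroid hormone and organic anion transporter, at 316.3, 478.4 and 902.8 against 262.0, 379.0 and 490.1. Slco1c1 rose by 0.49 ± 0.11 (SE; limma adjusted p = 0.0236), and the call was lost without wild-type replicate 10, vehicle Tg2576 replicate 11 or treated Tg2576 replicate 8. The fibroblast list of meninges and stroma had 0 of 14 called and a median of 0.08, with Lum, a matrix proteoglycan, at 0.21 (limma adjusted p = 0.697). Its summed signal ranged from 857.6 to 2555.7 on the high and from 804.9 to 2382.3 on the low arrays. The pericyte list had 0 of 9 called, with Kcnj8 at -0.13, and the border macrophage list 0 of 9, with Cd74 at 0.28. In the fibroblast, pericyte and border macrophage lists 0 genes had an unadjusted p under 0.05. No gene of the blood list passed the filter.

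Hippocampal cell lists had no gene called by limma. Of the microglial list 0 of 11 were called, with Trem2 at -0.32 (limma adjusted p = 0.644), and of the astrocyte list 0 of 13, with Gfap at 0.28 (adjusted p = 0.279). The oligodendrocyte list had 0 of 12, with the myelin gene Mal at 0.20, and the dentate gyrus list 0 of 12, with Glis3 at 0.28. The CA pyramidal field list had 0 of 14, with Mpped1 at -0.22 (adjusted p = 0.351), and the general neuron list 0 of 12, with the neurofilament gene Nefl at -0.11. The summed CA signal was 4519.5 to 5625.2 on the high and 4629.1 to 5760.6 on the low arrays, so hippocampal pyramidal markers were present in both classes. The list of thalamus, habenula and striatum had 0 of 12, with Ppp1r1b, the striatal phosphatase regulator DARPP-32, at 0.51 (adjusted p = 0.14). At an unadjusted p under 0.05 there were 3 dentate genes, 2 each of the astrocyte, CA and thalamic lists, 1 neuronal gene and 0 of the microglial and oligodendrocyte lists. The medians of these lists lay between -0.06 and 0.14.

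**Figure D5:**
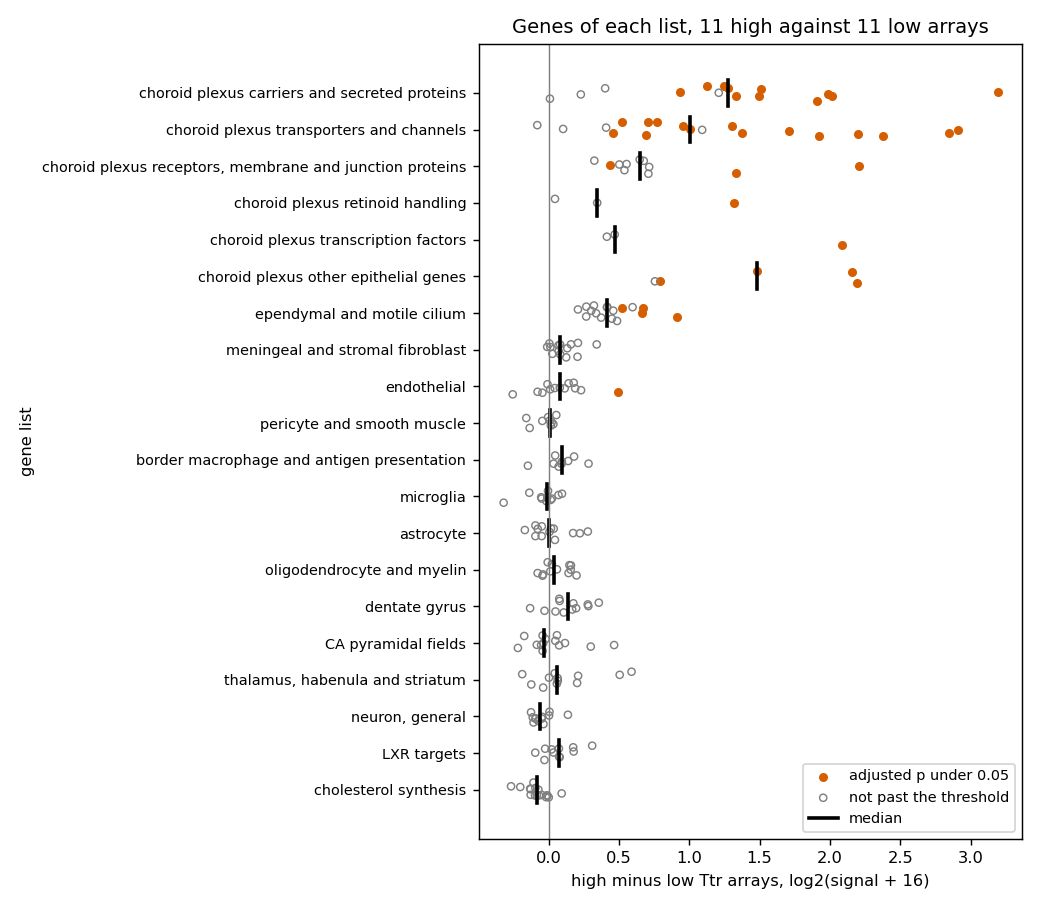
Difference between the 11 high and the 11 low arrays, log2(signal + 16), for each tested gene of each list, with the list's median as a black bar. Filled points passed adjusted p under 0.05. The choroid plexus lists extend to 3.19, the ependymal list to 0.91, and the lists of hippocampal cells are spread around 0.

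Outside all lists, 49 genes were higher and 1 was lower. The cyclin-dependent kinase inhibitor Cdkn1c rose by 1.10 ± 0.22 (SE; limma adjusted p = 0.0103), with signals of 26.5, 50.3 and 151.3 against 5.8, 17.98 and 39.2. Mdfic, an inhibitor of MyoD-family factors, rose by 1.02, at 49.1, 65.2 and 193.1 against 16.7, 30.4 and 46.8, with no overlap between the classes. The cilium genes Pifo and Cfap52 rose by 0.98 and 0.82, both with overlapping signals. Fap, a cell surface protease of fibroblasts, rose by 0.88, Pcolce2, which enhances collagen processing, by 0.80, and Smim22, a small membrane protein, by 0.85. Hemk1, a methyltransferase of release factors, and Cdr2, a cytoplasmic antigen of cerebellar degeneration, rose by 0.85 and 0.76, each without overlap. Ltc4s, which makes leukotriene C4, rose by 0.79, the zinc transporter Slc39a4 by 0.77, the vesicle SNARE Vamp8 by 0.75 and the galectin Lgals3 by 0.68. The Ltc4s call was lost in 13 of 22 fits without 1 array and that of Lgals3 in 8. The calls of Hemk1 and Slc39a4 were lost without vehicle Tg2576 replicate 11 or treated Tg2576 replicate 8, and that of Slc39a4 also without wild-type replicate 10.

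The only gene that fell in high minus low was Galnt9, a glycosyltransferase of brain that starts O-linked sugar chains. Its signal was 242.0, 263.4 and 285.8 on the high arrays and 274.4, 319.1 and 387.2 on the low arrays, so the ranges overlapped. It fell by 0.28 ± 0.06 (SE; limma adjusted p = 0.0183), and the call was lost without wild-type replicate 10, vehicle Tg2576 replicate 9 or vehicle Tg2576 replicate 11. Across all genes, 1179 had an unadjusted p under 0.05. With arrays ranked within treatment groups, 83 genes were higher and 19 lower.

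Genes of the study's own question were set against the Ttr classes as well. Of the liver X receptor targets 0 of 11 were called, with the cholesterol exporter Abca1 at 0.18 ± 0.08 (SE; limma adjusted p = 0.491), while 5 of the high and 1 of the low arrays came from treated mice and the fit took group into account. Of the cholesterol synthesis genes 0 of 17 were called, with the isomerase Idi1 at -0.13 (adjusted p = 0.409). At an unadjusted p under 0.05 there were 3 of the former and 1 of the latter. In the study's comparisons over 33 arrays, vehicle Tg2576 against wild type called 30 genes, or 0.235%, and 41 with log2 Ttr as a covariate, all 30 among them. TO901317 against vehicle in Tg2576 called 36 genes, or 0.282%, and 30 with log2 Ttr as a covariate, 21 of which were among the 36. Limma called 0 of the 56 choroid plexus genes in either comparison, with or without the covariate. At an unadjusted p under 0.05 there were 2 without and 4 with the covariate for the genotype, and 1 and 6 for the agonist.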

How the data were processed

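Total RNA of the right hippocampus of 33 mice was hybridised to MOE430 2.0 arrays. The deposited values are linear MAS5 intensity values, per the submitters' processing notes, and each array's mean after trimming 2% at each end was 99.97. The MAS5 version and genome build are not given in these sources. Of 45101 probe sets, 34945 named 1 gene, 932 several and 9160 none, after control probe sets (64) were set aside. MAS5 signals near background are noisy, and the offset of 16 shrinks differences of dim genes. The 40% of probe sets with the lowest mean log2 value (under a signal of 13.3) were left out. Each gene was represented by its single-gene probe set of highest mean log2 value, and 12759 genes remained after Ttr was removed.

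The high and low classes were compared with limma 3.58.1 in R 4.3.3 (lmFit, eBayes with trend and robust) with 1 mean per treatment group, and Benjamini-Hochberg adjusted p under 0.05 counted as a call. Single measures were tested by two-sided permutation with 100000 resamples. The procedure was tested on simulated data. The labels number the arrays as biological replicates and do not name the animals. The number of arrays limits the precision. Called choroid plexus genes, the 15 largest rises and falls outside them and up to 4 called members of each other list (or the member of smallest p) are named. Choroid plexus genes named without a call, Col1a1, Col1a2 and Slc6a13 were chosen after their values were seen. Members and the 21 lists were chosen with earlier results of these data known. Promoters came from RefSeq's table for GRCm38.p6. Alternatives covered the offset, filter, normalization, probe set rule, covariates, variance model, ranking, class size and each array in turn.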

Additional observations from a re-analysis of the deposited data

How the results depend on the processing

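The main comparison called 90 genes, 35 of them choroid plexus genes. Leaving out each of 22 arrays in turn gave 58 to 104 genes and 32 to 38 choroid plexus genes. With the lowest 60% of probe sets left out there were 53 and 20, among 33 choroid plexus genes tested. Ranking by the other choroid plexus genes, which uses the genes it then counts, gave 203. Classes of 5 arrays gave 2 and 2, and log2 Ttr over all 33 arrays gave 144, of which 54 were lower. Other alternatives gave 66 to 102 genes and 32 to 38 choroid plexus genes. They included the offsets of 1 and 64, no filter, quantile normalization, mean of probe sets and no group covariate. The Gapdh ratio, the fibroblast score, no trend and ranking within groups were also among them. So was leaving out vehicle Tg2576 replicates 3 and 4, whose Gapdh ratios stood apart. Ranking by the second Ttr probe set gave the same classes and therefore the same fit.

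The replicate numbers were not treated as pairs: deviations of the 33 same-numbered pairs correlated between -0.109 and 0.221, 11 were over 0.1, and 4 of 33 arrays correlated best with an array of their own number. With the replicate block as a random term 86 genes and 35 choroid plexus genes were called. The block gave 49 genes in place of 30 for vehicle Tg2576 against wild type and 43 in place of 36 for TO901317.

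No gene's slope on log2 Ttr differed between groups by limma with the offset of 64 (658 at an unadjusted p under 0.05) or without the 5 highest and 5 lowest arrays (675). The following were chosen after seeing the data. Linear means for the filter and probe set gave 94 genes and 37 choroid plexus genes. Log2 Ttr gave 0 genes by limma with the replicate block as fixed means (821 at an unadjusted p under 0.05), 0 among arrays numbered 1 to 7 (523) and 0 among those numbered 8 to 11 (687). The high arrays gave 196 genes against the other 22, 59 there with the fixed block, 38 among numbers 1 to 7 and 0 among numbers 8 to 11 (1029 at an unadjusted p under 0.05). Why the counts differ was not tested.

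Among named genes, signs turned only for values that had not passed. Clu was -0.019 with the mean of probe sets, -0.039 ranked within groups, -0.010 on log2 Ttr, -0.021 without treated arrays, -0.012 against the other 22, -0.0038 against the middle 11, and -0.040 to 0.056 in the 22 fits without 1 array. Kcnj8 was 0.049 in classes of 5, 0.013 on log2 Ttr among numbers 1 to 7, 0.0084 against the other 22, 0.011 there with the fixed block, 0.21 among numbers 1 to 7 and 0.078 against the middle 11. Lum was -0.32 in classes of 5 and -0.030 on log2 Ttr among numbers 1 to 7. Atp1b1 was 0.0050 on log2 Ttr with the fixed block, 0.012 on log2 Ttr among numbers 8 to 11 and 0.0011 among numbers 1 to 7, and Abca1 -0.00089 on log2 Ttr with the fixed block. Gfap was -0.059 and Msx1 -0.019 on log2 Ttr among numbers 8 to 11, and Gfap -0.097 among numbers 1 to 7 and -0.045 against the middle 11. Nefl was 0.013 on log2 Ttr among numbers 8 to 11 and 0.012 in the high arrays there.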
